A study of Mus musculus with 18 samples.

Results

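The 6 genes described here are the 4 adult globins of the mouse, Hba-a1, Hba-a2, Hbb-bs and Hbb-bt, and a pair of genes of red cell precursors, Alas2 and Slc4a1. They were chosen by name, as 6 of the 35808 nuclear genes counted in single heart cells of developing mice. Haemoglobin is a tetramer of α-globin and β-globin chains, each holding a heme group. Its chains come from the Hba and Hbb gene clusters, which erythroid precursors transcribe at very high levels in the bone marrow, spleen and fetal liver. Alas2 encodes the erythroid form of 5-aminolevulinate synthase, the first enzyme of heme synthesis, and Slc4a1 encodes band 3, the anion exchanger of the red cell membrane. Reticulocytes still carry globin mRNA when they enter the blood, so a dissociated heart can hold globin RNA both in blood cells and in the fluid around other cells.

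All mice were of the Myh6/Esr1-Tomato line, in which a Cre recombinase driven by the cardiomyocyte promoter of Myh6 and activated by tamoxifen turns on a tdTomato reporter, so the strain is shared by every group. Hearts were taken at postnatal day 4 (P4, 2 chips), day 7 (P7, 2 chips), day 14 (P14, 2 chips) and day 28 (P28, 6 chips) from uninjected animals of this line, called wild-type below because their labels give no knockdown, and 6 further chips at day 28 held cells of animals injected with a lentivirus carrying a hairpin against Jun (shJun) or a non-targeting hairpin (shNT), with 2 animals per hairpin. P4 and P7 ventricles were chopped and digested with a kit, whereas P14 and P28 hearts were digested by Langendorff perfusion, so age and digestion cannot be told apart. The labels of every chip give low-speed centrifugation as the step that parted cardiomyocytes (CM) from non-cardiomyocytes (NCM), whereas the study's methods part the cells of neonatal hearts by their adherence. Single cells were dispensed into nanowells whose images were inspected before sequencing. Counts were unique molecular identifiers (UMIs), each standing for 1 captured RNA molecule.

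Altogether 23483 wells held a cell, 15999 of them wild-type and 7484 from the injected animals. Nuclear UMIs per chip, in units of 1000000, ranged from 5.57 to 79.3, and the median per well from 1962 to 41484. The adult globins took 6.15% of the nuclear UMIs in these wells. Of 5070 well barcodes, 4903 were used on 2 or more chips. Chips of 1 stage could share animals (the well reports name M1 and M2 on the P4, P7 and most P28 chips), so p-values over chips measure the spread between chips.

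The α-globin genes Hba-a1 (chr11:32283511-32284465, plus strand) and Hba-a2 (chr11:32296489-32297298, plus strand) lie in tandem, as do the β-globin genes Hbb-bs (chr7:103826534-103828096, minus strand) and Hbb-bt (chr7:103812524-103813996, minus strand); Alas2 lies at chrX:150547375-150570638 on the plus strand and Slc4a1 at chr11:102348824-102366203 on the minus strand (GRCm38, GENCODE vM21). Of the 50-base stretches of Hba-a1 exons, 72.3% occurred in Hba-a2, and 89.3% of those of Hba-a2 occurred in Hba-a1. For Hbb-bs and Hbb-bt the shares were 53.2% and 58.3%. The division of reads within each pair is therefore uncertain. The sums over both α genes or both β genes do not depend on how shared reads were divided. They would be lower if such reads were left uncounted, by shares that could differ between the pairs. How such reads were counted is not given. No 50-base stretch was shared with Hba-x, Hbb-y, Hbb-bh1, Hbb-bh2, Hbb-bh3 or Hba-ps4.

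The promoters of 5 of the members are shown (Slc4a1 had no entry in the table used), because the globin genes moved together across chips, and because the α pair can hardly be told apart by sequence. Each run gives the 120 bases before the transcription start in RefSeq (GRCm38.p6), read 5′ to 3′ on the strand of the gene, for Hba-a1 at chr11:32283552-32283671, Hba-a2 at chr11:32296372-32296491, Hbb-bs at chr7:103827929-103828048, Hbb-bt at chr7:103813924-103814043 and Alas2 at chrX:150547297-150547416. Capitals mark 4 motifs, searched on both strands. The GATA motif was searched by the letters GATAA. The motif like a TATA box was searched by the letters TATAA. The other motifs, the CACCC box and the box named CCAAT, were searched by the letters of their names. No match overlapped another, but in Hbb-bt a pair of matches to the last motif on opposite strands adjoin, as do the 3 CACCC boxes of Alas2.
Hba-a1: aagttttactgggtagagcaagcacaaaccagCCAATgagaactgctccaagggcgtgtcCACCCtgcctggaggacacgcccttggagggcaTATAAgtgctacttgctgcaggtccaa
Hba-a2: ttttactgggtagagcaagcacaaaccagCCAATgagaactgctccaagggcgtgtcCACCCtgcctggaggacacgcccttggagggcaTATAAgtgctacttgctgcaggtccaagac
Hbb-bs: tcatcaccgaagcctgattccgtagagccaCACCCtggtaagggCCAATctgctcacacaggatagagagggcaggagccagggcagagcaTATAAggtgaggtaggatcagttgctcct
Hbb-bt: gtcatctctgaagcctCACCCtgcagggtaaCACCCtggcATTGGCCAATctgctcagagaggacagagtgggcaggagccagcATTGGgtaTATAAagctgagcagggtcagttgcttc
Alas2: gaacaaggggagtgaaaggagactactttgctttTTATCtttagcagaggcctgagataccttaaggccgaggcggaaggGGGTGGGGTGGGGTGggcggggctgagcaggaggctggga
The 4 globin promoters each held a CACCC box, a CCAAT box and a motif like a TATA box, which began 27 to 30 bases before the start. Alas2 held neither of the last motifs in this window, but 1 GATA motif and 3 CACCC boxes, all on the other strand. Over 32851 mouse promoters of the same length, 10.5% held the GATA motif and 31.7% a CACCC box. The share was 21.3% for the CCAAT box and 11.9% for the motif like a TATA box. Each globin gene had 1 GATA motif further upstream, within 250 bases of the start. In the whole window of 250 bases, 22.6% of the 32851 promoters held this motif. Hba-a1 and Hba-a2 shared a run of 117 bases, Hbb-bs and Hbb-bt one of 14 bases.

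The first question was how much globin RNA each stage held. In counts per 1000000 nuclear UMIs (CPM), the 4 adult globins together reached 872 and 679 in the P4 chips. The P7 chips held 10081 and 11476 CPM, and the P14 chips 308076 and 168380 CPM. Both P7 chips were thus above both P4 chips, and both P14 chips were above both P7 chips. The 6 P28 chips held 37813, 40235, 4550, 139031, 10865 and 260098 CPM, in replicate order. P28 therefore spanned the range from below P7 to the level of P14, with replicate 3 lowest and replicate 6 highest. The P28 chips differed in their cells. By the well reports, replicate 1 and replicate 5 held only CM wells, whereas only NCM wells lay on replicate 2 and replicate 6. Replicates 3 and 4 name no fraction. Cells clustered as cardiomyocytes (CM-like, described below) made up 99.7% and 0.477% of their clustered cells, against 13.2% to 16.2% in the P4 and P7 chips. The part of these differences in the chip sums and stage contrasts was not tested. As a share of the nuclear UMIs of a chip, globin ranged from 0.0679% at P4 to 30.8% at P14.

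**Figure D1:**
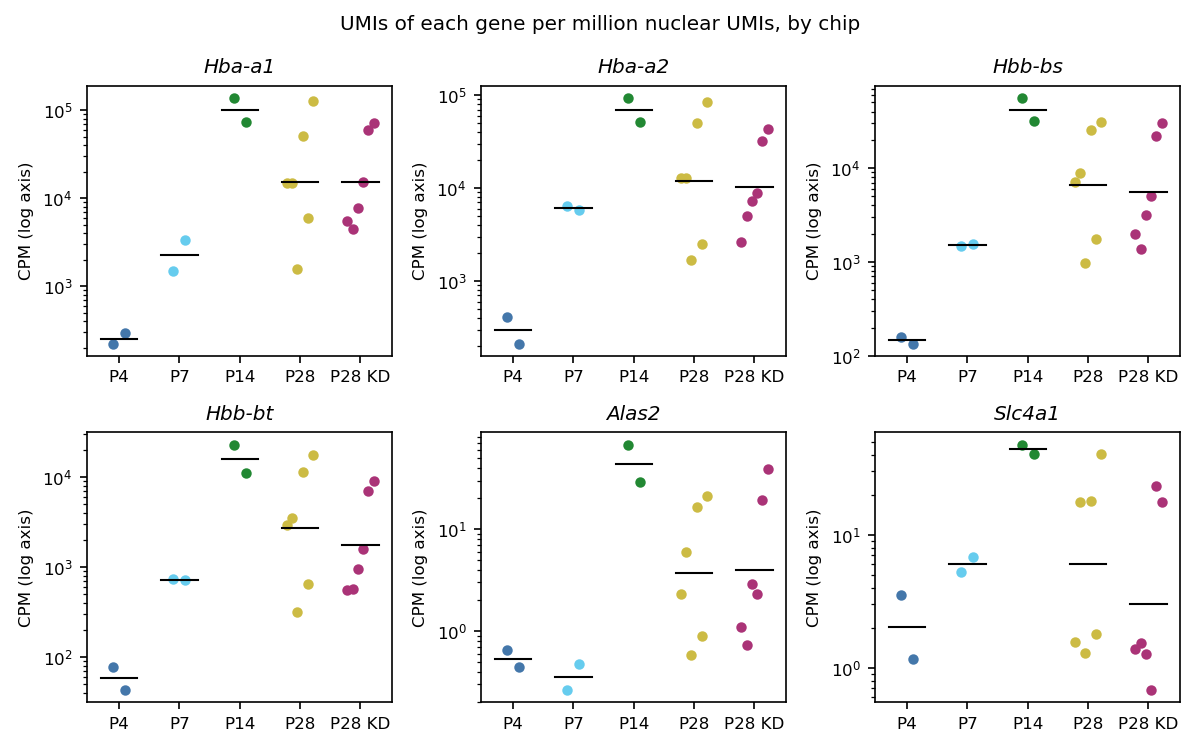
CPM of each of the 6 genes per chip on a log axis, by stage, with each point a chip. The 4 globins rose from below 500 CPM in the P4 chips to above 10000 in the P14 chips, and Alas2 and Slc4a1 were above 25 CPM in both P14 chips and below 10 in all P4 and P7 chips.

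Averaged on the log2 scale, globin CPM was 15.84 ± 2.22 (SD, n = 8) in the P14 and P28 chips and 11.49 ± 2.2 (SD, n = 4) in the P4 and P7 chips. The difference was 4.35, higher in the later stages (two-sided exact permutation test over chips, p = 0.0121; Benjamini-Hochberg adjusted p = 0.0364 over 9 exact tests). The groups overlapped, because P28 replicate 3 lay below both P7 chips and replicate 5 between them. Without the P4 chips the difference fell to 2.45 (exact permutation test, p = 0.222), so the test rested on P4. Sums per animal in place of chips, with P28 replicates 3 and 4, which name no animal, as 1 sum, gave 5.07 (exact permutation test, p = 0.00606). Holding each well to at most 10 globin UMIs gave 1.70 (exact permutation test, p = 0.0162).

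Each globin followed this order by itself. Hba-a1 stood at 222 and 290 CPM in the P4 chips, 1483 and 3357 CPM in the P7 chips, and 137248 and 74249 CPM in the P14 chips. In the P28 chips it held 14874, 14975, 1561, 51517, 5975 and 128033 CPM. Its lowest P28 chip was within the P7 range and its highest within the P14 range. Hba-a2 held 414 and 212 CPM at P4, 6380 and 5843 CPM at P7, 92546 and 51688 CPM at P14, and 1686 to 83521 CPM at P28. Hbb-bs, the more abundant β-globin, held 157 and 135 CPM at P4, 1480 and 1559 CPM at P7, 55467 and 31454 CPM at P14, and 986 to 30929 CPM at P28. Hbb-bt held 78.5 and 43.0 CPM at P4, 737 and 717 CPM at P7, 22815 and 10989 CPM at P14, and 318 to 17615 CPM at P28. For each of these globins P4 was lowest, P14 was above P7 without overlap, and P28 overlapped P7 or fell below it.

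Alas2 and Slc4a1 were far scarcer. Alas2 held 0.652 and 0.440 CPM in the P4 chips, 0.263 and 0.476 CPM in the P7 chips, and 67.3 and 28.8 CPM in the P14 chips. Its P28 values were 2.29, 5.92, 0.578, 16.5, 0.898 and 21.3 CPM. P4 and P7 did not separate for Alas2, and P14 stood above every other wild-type chip. Slc4a1 held 3.52 and 1.17 CPM at P4, 5.27 and 6.85 CPM at P7, 47.6 and 40.5 CPM at P14, and 1.55, 17.6, 1.29, 17.9, 1.8 and 40.8 CPM at P28. P28 replicate 6 reached the P14 level, while replicates 1, 3 and 5 lay within the P4 range. The 81 Slc4a1 UMIs of P4 replicate 1 came from 9 wells.

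In an edgeR quasi-likelihood fit over the 12 wild-type chips, 5 of the 6 genes were higher at P14 and P28 than at P4 and P7 at a Benjamini-Hochberg adjusted p below 0.05, and 0 were lower, against 1.08% of the 21246 genes tested that were called higher, 1.43% lower and 2.51% in either direction. Over all genes the median log2 change was 0.16. The log2 change of Hba-a1 was 6.85 (SE 1.5, adjusted p = 0.0298, edgeR), that of Hba-a2 5.58 (SE 1.32, adjusted p = 0.0415, edgeR) and that of Hbb-bs 6.19 (SE 1.17, adjusted p = 0.0163, edgeR). Hbb-bt changed by 6.16 (SE 1.17, adjusted p = 0.0167, edgeR), and Alas2 by 5.99 (SE 0.97, adjusted p = 0.00738, edgeR). Slc4a1, at 3.25 (SE 0.84), missed the threshold (adjusted p = 0.0600, edgeR). Without any 1 of the 4 P4 and P7 chips, 0 of the 6 passed, and without P14 replicate 1 or 2, 2 and 3 passed.

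Between neighbouring stages the same edgeR fit called 0 of the 6 genes, and 0% of the genes tested. For P7 against P4 the log2 changes of the globins were 3.20 (Hba-a1), 4.28 (Hba-a2), 3.35 (Hbb-bs) and 3.57 (Hbb-bt), with Alas2 at −0.55 and Slc4a1 at 1.39. For P14 against P7 they were 6.44, 4.57, 5.84 and 5.55, with Alas2 at 8.0 and Slc4a1 at 3.83 (adjusted p from 0.0891 to 0.364, edgeR). For P28 against P14 they were −2.39, −2.25, −2.64 and −2.35, with Alas2 at −3.48 and Slc4a1 at −2.56. At an unadjusted p under 0.05, 921, 2465 and 1257 genes passed in the 3 contrasts, and DESeq2 called 32, 733 and 64 genes at its adjusted threshold (0.151%, 3.45% and 0.301% of those tested). DESeq2 called all 6 members for P14 against P7 and 0 of them in the other contrasts between neighbouring stages. An edgeR fit on the compared stages alone called 4 members for P7 against P4, where it called 1.53% of all genes, and 6 for P14 against P7, where it called 6.66%. With no filter on low counts edgeR called 3 members for P14 against P7 and 0.366% of all genes.

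Genes of the same pathways were followed through fixed lists, whose tests are again of P14 and P28 against P4 and P7. Of 6 other globin genes 5 were tested, and 4 rose (list median log2 change 7.06, against 0.16 over all genes). Hbb-bh3 rose by 8.31 (adjusted p = 0.00499, edgeR), Hbb-bh1, an embryonic β-like globin, by 7.06 (adjusted p = 0.0224, edgeR) and Hbb-bh2 by 7.35 (adjusted p = 0.0242, edgeR). Their levels were low: at P14 Hbb-bh3 gave 3.14 UMIs per 10000 adult globin UMIs and Hbb-bh1 0.864. At P4 Hbb-bh3 gave 4 UMIs in 4 wells and Hbb-bh2 none.

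Of the 12 genes of heme synthesis 4 rose (list median 1.04), among them Alas2, Fech, which inserts iron into heme (2.04, adjusted p = 0.0173, edgeR), and Slc25a37, the mitochondrial iron importer mitoferrin-1 (2.47, adjusted p = 0.0343, edgeR). Of 14 red cell membrane genes 3 rose (list median 1.13), among them Epb41, which encodes protein 4.1 (2.39, adjusted p = 0.00499, edgeR), and the water channel gene Aqp1 (2.36, adjusted p = 0.0170, edgeR). Aqp1 is also expressed by endothelial cells. Of 13 tested erythroid genes other than globins 2 rose (Alas2 among them, list median 1.95), and of 9 tested regulators of erythropoiesis 0 passed (list median 0.54). Of 10 genes that handle heme and iron 1 rose, Cd163, the macrophage receptor that takes up haemoglobin bound to haptoglobin (4.92, adjusted p = 0.00701, edgeR). Genes fell in none of these lists. Few markers of other cells passed the same test: 1 of 8 macrophage markers rose (Mrc1), 1 of 8 mural (Myh11) and 1 of 6 platelet markers (Gp1bb) fell, and 0 passed in the lists for cardiomyocytes, endothelial cells, fibroblasts, T cells, B cells, granulocytes, epicardium and Schwann cells. Several immune lists nevertheless had higher medians than the heme and membrane lists. The median log2 change was 2.12 for macrophage markers, of which 7 lay between 1.82 (C1qa) and 2.75 (C1qc), 2.23 for T-cell markers (1.42 to 4.31) and 2.19 for granulocyte markers (1.59 to 3.35). Summed, the macrophage markers ranged from 190 to 363 CPM in the P4 and P7 chips and from 146 to 4587 CPM in the later ones, the T-cell markers from 4.48 to 34.6 and from 2.95 to 629 CPM, and the granulocyte markers from 11.9 to 65.1 and from 10.8 to 1901 CPM, with none of the markers at 0 in either set of chips. Their part in the rise of the globins was not tested. The erythroid genes other than globins summed to between 20.7 and 35.9 CPM in the P4 and P7 chips and between 19.4 and 364 CPM in the later ones, so the ranges overlapped.

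The second question was whether globin RNA sat in a few wells or in most. At P4 a globin UMI was found in 55% of wells of replicate 1 (exact 95% binomial interval 52.3 to 57.7) and in 65.5% of replicate 2 (62.9 to 68.0). At P7 the share was 97.4% and 98.9%, and at P14 99.9% and 99.4%. In the P28 chips it was 99.0%, 99.7%, 98.6%, 99.8%, 85% and 99.9%. Only P4, and P28 replicate 5, had more than 3% of wells without globin. In the chips of the injected animals, 99.9% to 100% of wells held a globin UMI. Intervals cover counting error only.

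The mean share was 18.5 percentage points higher at P14 and P28 (97.7 ± 5.13, SD, n = 8) than at P4 and P7 (79.2 ± 22.3, SD, n = 4; two-sided exact permutation test, p = 0.0222, adjusted p = 0.05 over 9 tests). Without P4 the difference was −0.498 points (exact permutation test, p = 0.978). Wells with more UMIs can show a rare RNA more often. Thinned to 1000 UMIs per well, 25.9% and 28.7% of P4 wells kept a globin UMI, against 96.3% and 89.1% at P7, 100% and 95% at P14, and 77.9% to 100% at P28. The 2 P4 chips stayed below every other wild-type chip.

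The typical well held little globin next to the richest wells. The median was 1 and 2 globin UMIs per well at P4, 68 and 58 at P7, and 619 and 43 at P14. At P28 it was 17, 52, 72, 280, 9 and 97. The P14 chips differed by more than 10-fold in this median, and P28 replicates spanned the values of P7 and P14 replicate 2. The richest 1% of wells held between 13.0% (P14 replicate 1) and 65.9% (P7 replicate 2) of the globin UMIs of a chip.

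Wells with more than 50% of their UMIs from globin numbered 0 of 2706 at P4, 2 of 2637 at P7, 418 of 2688 at P14 (15.6%), 311 of 7968 at P28 (3.90%) and 146 of 7484 in the injected animals (1.95%). At P14, 306 of them were in replicate 1 and 112 in replicate 2. At P28, replicate 6 held 188 and replicate 4 held 100, while replicates 3 and 5 held 0. Wells without a globin UMI made up 39.7% of P4 wells, 1.90% at P7, 0.298% at P14 and 2.2% at P28. At P4 and P7 most wells thus lay at or below 1% globin, and the band above 10% was well filled from P14 on.

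**Figure D2:**
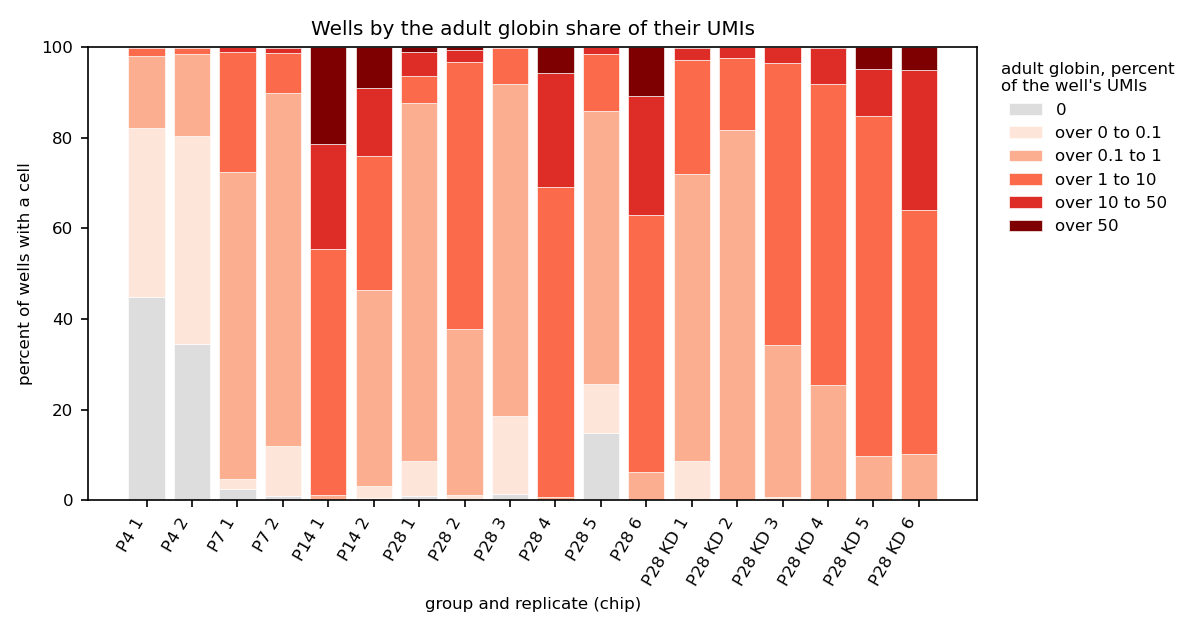
Percent of wells of each chip in bins of the share of nuclear UMIs that came from the 4 adult globins. Wells above 50% globin were absent at P4 and made up 21.3% and 8.96% of wells in P14 replicates 1 and 2.

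Within most chips, wells with more other RNA also held more globin UMIs. In P7 replicate 1 the median was 13 globin UMIs in the third of wells with the fewest other UMIs and 206 in the third with the most. In P28 replicate 4 the same medians were 88 and 678. P14 differed: its medians ran from 580 to 678 in replicate 1 and from 66 to 38 in replicate 2. Over all wells of a P14 chip, globin thus did not rise steadily with other RNA. Both P14 chips mixed CM and NCM wells, however. The median was 353.5 globin UMIs in CM and 1988.5 in NCM wells of replicate 1, and 23 and 94 in replicate 2. Replicate 2 also differed in depth, with a median of 6899 UMIs in CM and 1406 in NCM wells. Trends within a fraction are not given here.

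Control wells into which no cell was dispensed give the background. A globin UMI was found in 0 of 10 such wells at P4, 3 of 10 at P7, 10 of 10 at P14, 23 of 30 at P28 and 29 of 30 in the injected animals, 65 of 90 in all. At P4, 0 of 10 wells allows a share of up to 30%. Mean globin UMIs per control well ranged from 0 to 143 over the chips, and globin CPM in them reached 250484 at P14. Alas2 and Slc4a1 gave 1 UMI each in all 90 wells. Wells with a cell held more globin UMIs than these control wells in 16 of 16 chips with globin in the control wells. The mean log2 ratio was 6.49 (two-sided exact sign-flip permutation test, p = 3.05e-05, the smallest it can give, adjusted p = 0.000275 over 9 tests). Control wells also held far fewer UMIs of all genes, on average 74 against 18340.5 in P7 replicate 1. This test therefore does not compare the share of globin. As a share, globin had a median over chips of 17917 CPM in control wells and 25029 CPM in wells with a cell. It was 27027 against 10081 CPM in P7 replicate 1, and 250484 against 308076 CPM in P14 replicate 1.

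The third question was whether the cell types of a chip differed in globin. Clusters were made without the globin, erythroid and heme genes and were named from marker lists. Within a chip, the highest class median of globin UMIs per well was between 1 and 3.61 times the lowest (median 1.48 over 16 chips, Erythroid-like cells left out). In P28 replicate 4 the medians ran from 275 in Granulocyte-like to 313 in Fibroblast-like cells. In P14 replicate 1 they ran from 400 in CM-like to 537 in Macrophage-like cells. Summed globin CPM varied more, by 2.01 to 11 times within a chip (median 4.21). Sums also differ from medians in being divided by the depth of each class, so the spreads are not on the same scale. In P28 replicate 4 it spanned 45976 CPM in T-cell-like to 194844 CPM in Granulocyte-like cells.

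**Figure D3:**
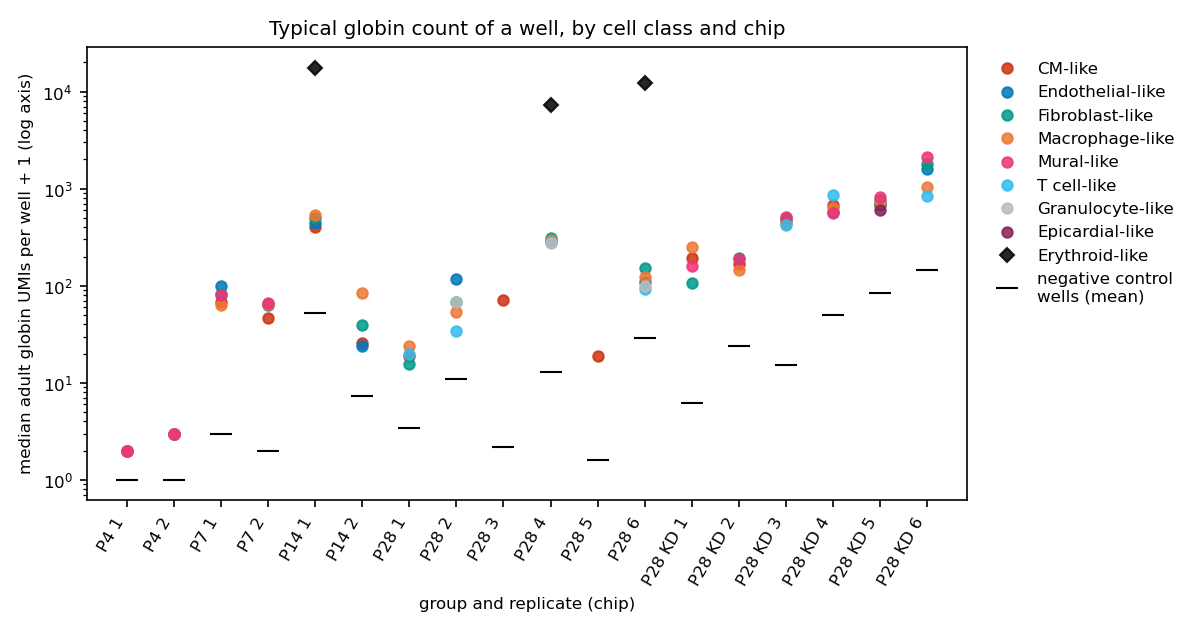
Median globin UMIs per well of each named cell class with at least 20 cells, by chip, on a log axis. Points of classes other than Erythroid-like lie within a factor of 3.61 in a chip, while chips span 1 to 2104 UMIs. Erythroid-like cells lie far above them, at 17685 UMIs in P14 replicate 1, 7329 in P28 replicate 4 and 12356 in P28 replicate 6.

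Pairs of classes were compared within chips with two-sided exact sign-flip permutation tests. Endothelial-like minus Fibroblast-like cells gave a mean log2 ratio of globin CPM of −0.0047 (SD 1.15, 11 chips, higher in 6, exact p = 0.989). Macrophage-like minus Fibroblast-like cells gave 0.110 (SD 1.06, 16 chips, higher in 8, exact p = 0.686). CM-like minus Fibroblast-like cells gave −0.696 (SD 1.64, 12 chips, higher in 3, exact p = 0.170). These differences were smaller than their spread over chips, which does not show that the classes are alike, and the sign of each changed under at least 1 alternative. Without P28 replicate 1 the last became −1.02 (exact p = 0.0244).

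Held to Endothelial-like cells (9 chip sums with at least 20 cells), the globins together ranged from 800 to 9746 CPM in the 4 sums of P4 and P7 and from 19997 to 154326 CPM in the 5 sums of P14 and P28, without overlap. Hba-a1 was higher at P14 and P28 than at P4 and P7 by 5.80 on the log2 scale (adjusted p = 3.53e-05, edgeR), Hba-a2 by 4.38 (0.000202), Hbb-bs by 4.97 (4.85e-06) and Hbb-bt by 4.56 (6.39e-05). Alas2 was higher by 4.07 (adjusted p = 0.0180, edgeR), and Slc4a1 changed by −0.11 (adjusted p = 0.974, edgeR). These 5 of 6 stand against 2.84% of 14001 genes called higher, 3.12% lower and 5.96% in either direction. Leaving out wells with erythroid genes turned the value of Slc4a1 to 2.31, and leaving out single chips moved it between −1.43 and 4.11.

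Markers of other cells moved in the same cells. Of 8 macrophage markers 4 rose in the Endothelial-like sums, of 3 tested granulocyte markers 1 (Retnlg), and of 8 mural markers 2 rose and 1 fell. The macrophage markers together ranged from 45.9 to 90.8 CPM in the 4 early sums and from 38.4 to 1060 CPM in the 5 late ones, with none of the 8 at 0. Of 8 cardiomyocyte markers 3 fell, and their sum ranged from 12641 to 16924 CPM early and from 1379 to 19333 CPM late. The part of these cells in the globin values was not tested.

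The fourth question separated globin RNA spread over most wells from wells that also held other erythroid genes. Wells with UMIs of at least 2 different erythroid genes other than globins, called erythroid wells here, numbered 757: 442 in wild-type hearts and 315 in the injected animals. The P4 chips held 8 and 6, the P7 chips 14 and 21, the P14 chips 187 and 23, and the P28 chips 8, 16, 15, 90, 3 and 51. P14 replicate 1 thus held more than any other chip. They held between 0.0762% and 49.8% of the globin UMIs of their chip, so most globin UMIs lay in other wells on every chip. The rule needs UMIs of 2 scarce genes, and wells that missed it could also be rich in globin. At P14, 210 wells met it, while 418 wells had more than 50% globin. Of the Erythroid-like cells described below, 107 of 196 met it at P14 and 79 of 185 at P28.

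At P14 the median share of globin was 65.4% of UMIs in erythroid wells against 5.24% in other wells of replicate 1, and 85.4% against 1.32% in replicate 2. At P28 it was 43.9% against 3.90% in replicate 4 and 71.0% against 7.35% in replicate 6. In P28 replicate 3 the shares were 0.251% and 0.192%, and in P7 replicate 1 they were 0.591% and 0.617%. Erythroid wells were thus far richer in globin in the P14 chips and in P28 replicates 4 and 6, and close to the other wells in P28 replicate 3 and P7 replicate 1. Over 17 chips with at least 5 erythroid wells, globin CPM in them was higher by 1.86 on the log2 scale (SD 2.04, higher in 15 of 17, two-sided exact sign-flip permutation test, p = 0.00285, adjusted p = 0.0128 over 9 tests). P4 replicate 2 and replicate 1 of the injected animals went the other way.

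Erythroid wells also held more UMIs in all, for example 49195 against 5902 in the median well of P4 replicate 1. After thinning every well to 1000 UMIs the difference was 1.91 in the 6 chips that kept enough erythroid wells (exact sign-flip permutation test, p = 0.03125). The share of erythroid wells with Alas2 differed by stage. At P14, 80.5% of the 210 erythroid wells held Alas2 and 44.8% held Slc4a1. At P28, 50.3% of 183 held Alas2 and 42.6% Slc4a1. At P4, 0 of 14 held Alas2. Erythroid wells above 10% globin numbered 196 at P14, 129 at P28, 11 at P7 and 1 at P4.

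At P14, at P28 and in the injected animals, wells with Alas2 had a higher median globin share than wells with Slc4a1 alone. At P14 the median globin share was 3.37% in the 2274 wells with neither gene, 13.6% in the 61 with Slc4a1 alone, 60.4% in the 285 with Alas2 alone and 75.1% in the 68 with both. All 68 wells with both were above 10% globin. At P28 the shares were 1.53% (7590 wells), 4.90% (151), 42.8% (192) and 54.3% (35). In the injected animals they were 1.39% (6925 wells), 1.97% (144), 17.9% (378) and 34.7% (37). The order of the 4 kinds of well was the same in these 3 groups. At P7 it did not hold, as the median was 0.501% in the 15 wells with Alas2 alone and 0.649% in the 59 with Slc4a1 alone, and 3 wells held both genes. At P4 it was 0.103% in 9 wells and 0.0821% in 13, with globin at 1517 and 22254 CPM in their sums, and none held both.

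Clustering found a group of cells with Car2 and Bpgm among its leading genes at P14 (196 cells beside 1495 others) and at P28 (185 beside 6167), and none at P4, P7 or in the injected animals. Among the marker lists, the erythroid list had the highest mean log2 ratio to other cells in each. At least 3 of its markers were detected, so the cells are called Erythroid-like. Of their 10 leading genes 7 were shared, among them Bpgm, Car2, Fam213a, Isg20, Tent5c and Ube2l6. Bpgm encodes bisphosphoglycerate mutase, which sets the red cell level of the compound that lowers the oxygen affinity of haemoglobin, and Car2 encodes a carbonic anhydrase. At P14, 186 of the cells were in replicate 1 and 10 in replicate 2. At P28, replicates 4 and 6 held 87 and 75, replicates 1 and 2 held 11 and 12, and replicates 3 and 5 held 0. CM-like cells made up 99.7% and 97.8% of the passing cells in replicates 3 and 5, and 86% in replicate 1.

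In Erythroid-like cells globin made up 688145 CPM at P14 and 631120 CPM at P28, against 119519 and 38580 CPM in the other passing cells. Alas2 was found in 67.3% of them at P14 (exact 95% binomial interval 60.3 to 73.9) and 44.9% at P28 (37.6 to 52.3), against 8.83% and 1.86% of other cells. Slc4a1 was found in 29.6% and 25.9%, against 2.41% and 1.83%. In CM-like cells, which should lack it, Alas2 was found in 4.57% at P14 and 0.484% at P28. Their depth did not run one way: Erythroid-like cells had a median of 27313 UMIs at P14 but only 7556 from genes other than globins, against 11056 and 9934 in other cells. Alas2 and Slc4a1 are on the list that named the clusters, so their higher shares there followed in part from the naming. These values describe the clusters and carry no test.

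**Figure D4:**
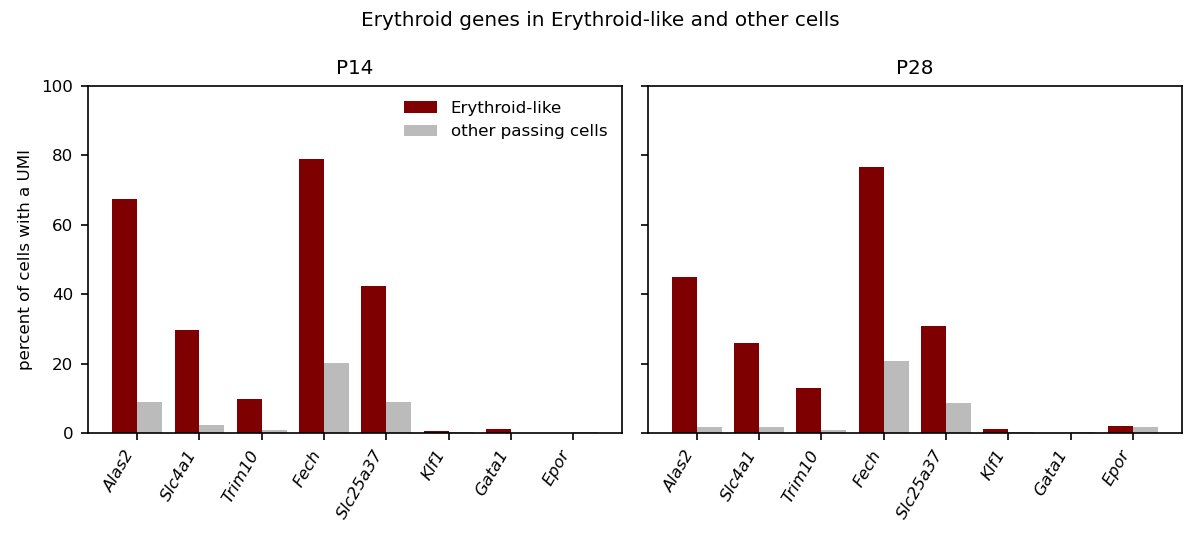
Percent of Erythroid-like cells and of other passing cells with a UMI of each listed gene at P14 and P28. Alas2 was found in 67.3% and 44.9% of Erythroid-like cells, and Klf1 in 0.510% and 1.08%.

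The heme pathway was uneven in these cells. Fech was found in 79.1% of Erythroid-like cells at P14 and 76.8% at P28, against 20.1% and 20.6% of other cells, and Slc25a37 in 42.3% and 30.8%, against 8.90% and 8.58%. Alas1, the housekeeping form of the enzyme that Alas2 encodes, was found in 7.65% and 4.32% of Erythroid-like cells, against 12.4% and 19.6% of other cells. Of 10 regulators of erythropoiesis, 7 were found in a larger share of Erythroid-like than of other cells at P14 and 6 at P28. Klf1, an erythroid transcription factor gene active in nucleated precursors, was found in 0.510% and 1.08% of Erythroid-like cells against 0.401% and 0.292% of others, and Gata1 in 1.02% and 0% against 0.134% and 0.373%. The transcription factor gene Bcl11a was the most widely found regulator at P14, in 9.18% and 8.11% against 8.76% and 6.70%, and Lmo2 at P28, in 2.55% and 9.19% against 2.41% and 5.55%. Of the 14 measured erythroid genes, 13 were found in a larger share of Erythroid-like than of other cells at P14 and 10 at P28. These genes named the clusters, so the counts lend the name no further support.

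The proportions among the globins were compared between cells and chips. The ratio of β-globin to α-globin UMIs ranged from 0.206 to 0.441 over the 18 chips, and did not differ between P14 and P28 and the earlier stages beyond the spread (log2 difference 0.133, two-sided exact permutation test, p = 0.469). Hbb-bt made up 21.9% to 36.3% of β-globin UMIs (difference −1.72 points, exact permutation test, p = 0.487). Hba-a1 made up 18.9% to 70.6% of α-globin UMIs, with P7 replicate 1 lowest. Within a stage, the β to α ratio was 0.341 in Erythroid-like and 0.332 in other cells at P14, and 0.295 and 0.332 at P28. It was 0.226 and 0.232 in P28 replicate 6, and 0.393 and 0.466 in replicate 2. Chips differed more than the kinds of cell did within replicate 6.

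The scarce relatives were set against adult globin in the same way, with no test. Hbb-bh3 gave 3.14 UMIs per 10000 adult globin UMIs in Erythroid-like cells and 3.15 in other cells at P14, and 2.69 and 2.47 at P28. Hba-ps4, an α-globin pseudogene, gave 21.9 and 21.5 at P14, and 34.4 and 28.4 at P28. Hbb-bh1 gave 0.918 and 0.780 at P14, and 1.05 and 1.15 at P28. The embryonic gene Hbb-y gave 0.303 and 0.407, then 0.230 and 0.230, and Hbb-bh2, from 25 to 73 UMIs, 0.180 and 0.264, then 0.125 and 0.0777. Over all wells Hbb-bh3 gave 0.864 at P4, 0.365 at P7 and 1.06 in the injected animals. Reads of a paralog assigned to the wrong gene would also scale with adult globin, and their part was not tested.

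Among the genes whose level over the 18 chips was most like that of the summed adult globins were Hba-ps4 (Pearson r = 0.93 of log2(CPM + 1), among 21319 genes), Isg20 (0.93), Gda (0.92) and Hbb-bh3 (0.90). Among the members the 4 globins lay between 0.989 and 0.995, being parts of the sum, Alas2 at 0.88 and Slc4a1 at 0.76. The chips share stage, digestion and depth, so these values are descriptive.

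The CM and NCM fractions of the same animal could be compared in 10 animals named in the well reports. This comparison was added after the values had been seen. At P14, globin rose from 104058 CPM in CM wells to 480420 CPM in NCM wells of animal m1, and from 18515 to 426132 CPM in m2. In the P28 animals of replicates 5 and 6 it was 10699 against 275958 CPM and 11183 against 241791 CPM. In those of replicates 1 and 2 it was 62017 against 68698 CPM in M2, and 16315 against 5639 CPM in M1. The last was the only animal with less globin in its NCM wells. Over the 10 animals NCM exceeded CM by 2.49 on the log2 scale (SD 2.15, higher in 9 of 10, two-sided exact sign-flip permutation test, p = 0.00977; adjusted p = 0.0303 over 10 tests). In the 6 wild-type animals alone it was 2.41 (exact sign-flip permutation test, p = 0.09375). Outside P14 the CM and NCM wells of an animal lay on different chips, and animals shared these chips. The tests over animals take them as independent, so they cannot part fraction from chip.

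**Figure D5:**
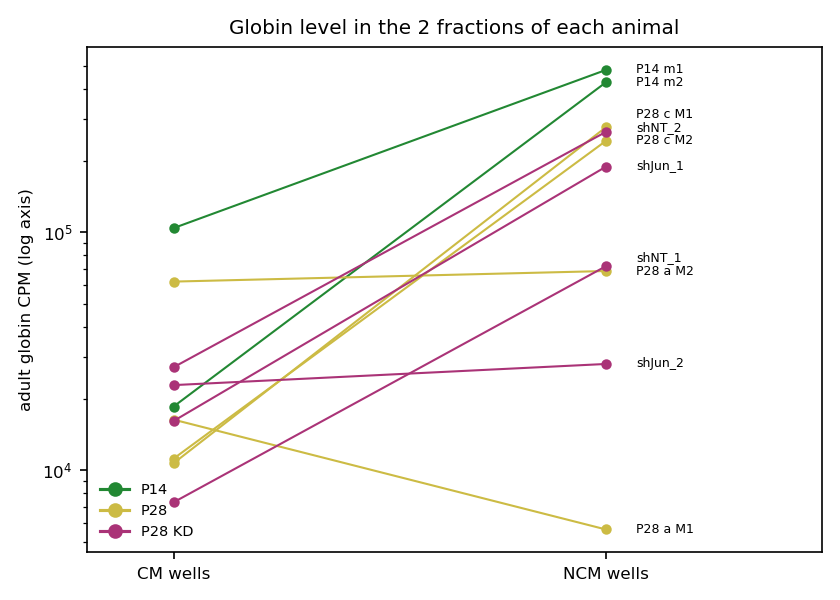
Globin CPM in CM and NCM wells of each of 10 animals on a log axis, with a line joining the fractions of an animal. The line rises in 9 animals and falls in the P28 animal M1 of replicates 1 and 2.

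Erythroid wells differed between the fractions in the same direction at P14, where NCM wells of m1 and m2 held 161 and 22 and CM wells 26 and 1. In P28 animals M1 and M2 of replicates 5 and 6, NCM wells held 28 and 23 and CM wells 2 and 1. In P28 animal M1 of replicates 1 and 2, which also had less globin in its NCM wells, CM wells held 4 and NCM wells 0. In 3 of the 4 injected animals the share of erythroid wells was larger in CM than in NCM wells, at 5.69% against 4.21% in shNT_1, 5.21% against 2.93% in shJun_1 and 4.42% against 2.68% in shJun_2. In shNT_2 it was 3.42% against 4.63%. Without erythroid wells the difference between the fractions was 2.27 (exact sign-flip permutation test, p = 0.0137).

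Among the injected animals, labelled shJun or shNT in the well reports, Jun itself, the target of the hairpin, gave 66.1 and 90.8 CPM over all wells with shJun, against 66.9 and 88.2 CPM with shNT, and overlapped. In CM wells alone it gave 30.5 and 32.8 CPM with shJun and 51.5 and 61.1 CPM with shNT, and in NCM wells 134 and 228 CPM against 96.7 and 140 CPM. The hairpin label was thus borne out by Jun in CM wells and not in NCM wells. Summed adult globin was 75591 and 24323 CPM with shJun, and 29304 and 108228 CPM with shNT. The hairpins overlapped. Log2 changes of shJun against shNT were −0.49 for Hba-a1, −0.58 for Hba-a2, −0.77 for Hbb-bs, −0.69 for Hbb-bt, −1.18 for Alas2 and −2.48 for Slc4a1, and 0 of the 6 were called by edgeR (adjusted p = 0.999 for each), as were 0% of the genes tested. Slc4a1 stood at 2.29 and 2.33 CPM with shJun and at 13.6 and 10.3 CPM with shNT. Its groups did not overlap, but with 2 animals per hairpin this says little, and the share of all genes without overlap is not given. In the NCM chips of the injected animals, replicates 5 and 6, its 1360 and 1288 UMIs came from 52 and 60 wells. The direction differed between the fractions: in CM wells Slc4a1 was higher with shJun, at 2.32 and 1.35 CPM against 0.831 and 0.587 CPM, and in NCM wells it was lower, at 2.24 and 4.66 CPM against 38.3 and 28.9 CPM. DESeq2 called Slc4a1 lower over all wells, the 1 member among the 87 genes (0.421%) it called. At an unadjusted p under 0.05 edgeR passed 751 genes.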

How the data were processed

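Single cells were profiled on ICELL8 nanowell chips, with 1 deposited matrix of UMI counts per chip and a well report that names the kind of well, the fraction and the animal. Per the labels, the authors aligned reads to mm10 with STAR 2.5.2b and counted them with featureCounts (Subread 1.4.6-p1). The deposited counts are not normalized. How reads shared by paralogs were counted is not given in the sources used here. Nanowell images were used to avoid doublets, and no doublet caller was run. Chips were grouped by the labels, fractions and animals by the well reports.

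All wells marked as cells were summed per chip, with mitochondrial genes, spike-ins and reporters left out of the total, and CPM was computed over nuclear UMIs. Passing wells had at least 500 genes and lay within 2 SD of their group's mean log10 UMIs (12831 wild-type and 7007 others). Clusters (scikit-learn 1.9.0, leidenalg 0.10.2, seed 1) were made per group without globin, erythroid and heme genes. They were named by the marker list with the highest mean log2 ratio to other cells, where at least 3 of its markers were detected in 20% of cells. Exact permutation tests over chips, or sign-flip tests within chips or animals (scipy 1.17.1), were two-sided, and Benjamini-Hochberg adjusted over 9 tests. Sums were fitted with edgeR 4.0.16 (quasi-likelihood, TMM, filterByExpr, all 4 stages in 1 fit), with DESeq2 1.42.0 as an alternative, and p-values were adjusted over all genes tested. Scripts were tested on simulated data. The Benjamini-Hochberg threshold was 0.05. The animals of the 2 hairpins that shared chips deviated together (correlation 0.22), which is a hint only. With 2 animals per hairpin their deviations from the hairpin mean mirror each other, so both pairs must give this same value.

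The members and lists were chosen with earlier results of these data known. Named beside the 6 members were the 3 called genes of each list with the smallest p, and the 5 genes most like the summed globins. Results for some genes that the rule names are not reported here. Depth, in units of 1000000 nuclear UMIs, was 5.57 to 79.3 per chip, and Alas2 and Slc4a1 gave 7212 and 6169 UMIs in all, so their shares are limited by counting.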

Additional observations from a re-analysis of the deposited data

Results flagged for a closer look

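Of 32 groups of chips or animals examined for a value far from the others, 4 stood out, and chance flags about 1 in 20. The share of wells with a globin UMI was 85% in P28 replicate 5, against 98.6% to 99.9% in the other P28 chips; this chip also had the fewest UMIs in all. The median of 280 globin UMIs per well in P28 replicate 4 stood above the other P28 chips, at 9 to 97. Hbb-bt made up 29.2% of β-globin UMIs in replicate 2 of the injected animals, against 21.9% to 24.4% in the other chips of that group. Globin in NCM wells of animal shJun_2 exceeded that in its CM wells by 0.30 on the log2 scale, against 3.28 to 3.55 in the other 3 injected animals.

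Positive control wells, which the comparisons above do not use, held 42.2 globin UMIs per well on average, against 24.1 in wells into which no cell was dispensed. Replicate 6 of the injected animals weighed heavily on this average, with 2546 globin UMIs in 5 positive control wells (mean 509, median 114). The median over chips of the mean per well was 11.8 in positive control wells and 8.2 in wells without a cell. A globin UMI was found in 64 of 91 positive control wells. What they were loaded with is not given in the sources used here.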

How the results depend on the processing

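Globin CPM at P14 and P28 stayed higher than at P4 and P7 under all other alternatives, but at 2.45 without P4 it no longer passed (exact permutation p = 0.222; range without single chips 3.66 to 5.02). The share of wells was 17.1 points in passing wells only, −0.498 without P4, and 10.4 to 25.0 without single chips, no longer passing without either P4 chip. The Hbb-bt share reversed to 0.600 points with sums per animal (−3.84 to −0.814 without single chips). Endothelial-like against Fibroblast-like reversed to 0.0390 with classes called well by well, 0.369 with at least 10 cells, 0.167 with wells held to 10 globin UMIs and 0.465 with marker-led clusters (−0.204 to 0.223 without single chips). Macrophage-like against Fibroblast-like reversed to −0.0310 with wells held to 10 UMIs and −0.0782 without erythroid wells (−0.0396 to 0.225), and CM-like against Fibroblast-like to 0.254 well by well (−1.02 to −0.473). With the median per well in place of CPM, the 3 were −0.0689, 0.0363 and −0.0615. Members called for P7 against P4 rose from 0 to 4 with only the compared stages in the fit; for P14 against P7 to 6 with DESeq2, 3 with no filter, 6 with only the compared stages, and 0 to 1 without single chips. For P14 and P28 against P4 and P7, 0 to 6 were called without single chips. Without single chips Slc4a1 in Endothelial-like cells lay between −1.43 and 4.11, and without erythroid wells at 2.31. For shJun against shNT, DESeq2 called 1 member; with the animals that share chips as a replicate block edgeR called 0, so the block changed no call. DESeq2 or other settings changed the number of genes called across the table: 32, 733 and 64 by DESeq2 between neighbouring stages and 2236 against 533 by edgeR for P14 and P28 against P4 and P7 (1343 with library size alone, 839 with no filter), 1488 against 835 in Endothelial-like cells, and 87 against 0 for the hairpins. With only the compared stages edgeR called 296 genes for P7 against P4 and 1235 for P14 against P7, and with no filter 2 and 128. The causes were not tested. Leaving out P4, the marker-led clusters, the medians per well, the fractions and the block were chosen after the data were seen. In all, 550 results under alternatives kept their direction and side of the threshold, 89 lost it, 14 gained it and 21 reversed.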
